A study of Homo sapiens with 24 samples.

Results

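Basal gene expression was compared between PLC/PRF/5 and SNU-449, a pair of established cell lines derived from human HCC, in cells that received neither TGFβ nor its inhibitor. The comparison rested on 6 of the 24 arrays of the study, the 3 labelled as control for PLC/PRF/5 and the 3 labelled as control for SNU-449, chosen by their labels alone. The study treated both lines with TGFβ1, with galunisertib, a small-molecule inhibitor of the kinase of the type I TGFβ receptor, or with both, and hybridised RNA from 3 independent cultures of each of 8 groups to one-colour Agilent arrays. Control cultures of both lines were kept overnight without serum, as were all other groups, and were harvested together with cells exposed for 16 h to 1 ng/mL TGFβ1 or 10 µM galunisertib. Each line stands for the tumour of 1 patient, so that a difference described here is a difference between these lines. Each array also took the same place on its slide in all 3 replicates, so that line and place on the slide cannot be told apart in the control cells.

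PLC/PRF/5 cells retain an epithelial, hepatocyte-like character, whereas SNU-449 cells are mesenchymal-like. A hepatocyte secretes most proteins of the blood plasma, makes glucose, degrades amino acids and conjugates foreign compounds, and hepatoma lines keep these tasks to different degrees. The classes described below go beyond the epithelial, mesenchymal and hepatocyte markers, to cell division, stress responses, metal binding, metabolism, immune sensing, growth factor signalling, adhesion and the identity genes that are silent in most adult tissues.

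A level is given throughout as the log2 of the processed signal over the 75th percentile of its array, so that 0 is the brightness of that percentile and -4.13 is the floor to which weaker signals were raised. A gene was called when limma gave a fold change above 2 with P below 0.001. Of 17900 genes tested, 34.4% were called, 16.8% (3016 genes) with a higher level in PLC/PRF/5 and 17.5% (3134 genes) with a higher level in SNU-449. At an adjusted p below 0.05 and any fold 68.5% of genes differed, and for 72.3% the 3 arrays of the lines did not overlap. The median log2 difference over all genes was 0.06, and the median size of a difference was 0.695. Scaling each array to its median moved the median difference to -0.28 and the split to 2171 genes leaning to PLC/PRF/5 and 4497 to SNU-449. Control arrays of the same line correlated at 0.991 to 0.994 over the tested genes, and arrays of different lines at 0.813 to 0.820. As each array measured RNA of a whole culture, more RNA per cell and more cells expressing a gene cannot be told apart.

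The markers followed the labels. *SERPINA1*, encoding α1-antitrypsin, *IGFBP1* and *APOB* were higher in PLC/PRF/5, and *CD44*, *SPARC* and *COL1A1* were higher in SNU-449. A second probe of *CD44* gave a log2 difference of -0.71, whereas the brighter probe gave at least 1236-fold, so that the size of this difference depends on the probe. Leukocyte markers, which neither line should express, were called in 0 of the 4 genes that could be tested of the 10 on the array. Of 10 endothelial markers, 4 could be tested and 1 was called in each direction, but 0 of the 2 measured on all arrays. Of 6 stellate cell and pericyte markers tested, 4 were called higher in SNU-449 and 1 in PLC/PRF/5, with *COL1A2*, a collagen I chain, at least 737-fold and *RGS5* at least 481-fold higher in SNU-449, and of the 2 measured on all arrays 0 and 1. Of 6 bile duct markers tested, 3 were called higher in SNU-449, among them *KRT7*, a keratin of simple epithelia, by 34.3-fold, and 2 in PLC/PRF/5, among them *EPCAM* by at least 299.8-fold, and of the 4 measured on all arrays 3 and 1. Their part in the results below was not tested.

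Many differences were between a measured level and none above background. Thus, 938 genes (5.24% of those tested) were well above background on all 3 PLC/PRF/5 arrays and on none of SNU-449, and 816 genes (4.56%) the other way. For such a gene the fold change is a lower limit, given as "at least", for which the dim line was set to the weakest signal that the scanner software called well above background. Such a gene could only enter the test through the line in which it was high. Therefore, the counts of a class are followed by those among its genes measured on all 6 arrays, of which there were 13740 in all, with 28.7% called, 13.1% towards PLC/PRF/5 and 15.6% towards SNU-449. A gene measured on only some arrays of a line is given with the fold between the mean levels, in which weaker signals stand at the floor, so that its size is approximate. The gene lists behind the classes are not independent of each other, with 42 of 1785 genes on more than 1 list. The lists were also written with earlier results of these data known, so their shares describe the classes and do not test them.

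**Figure D1:**
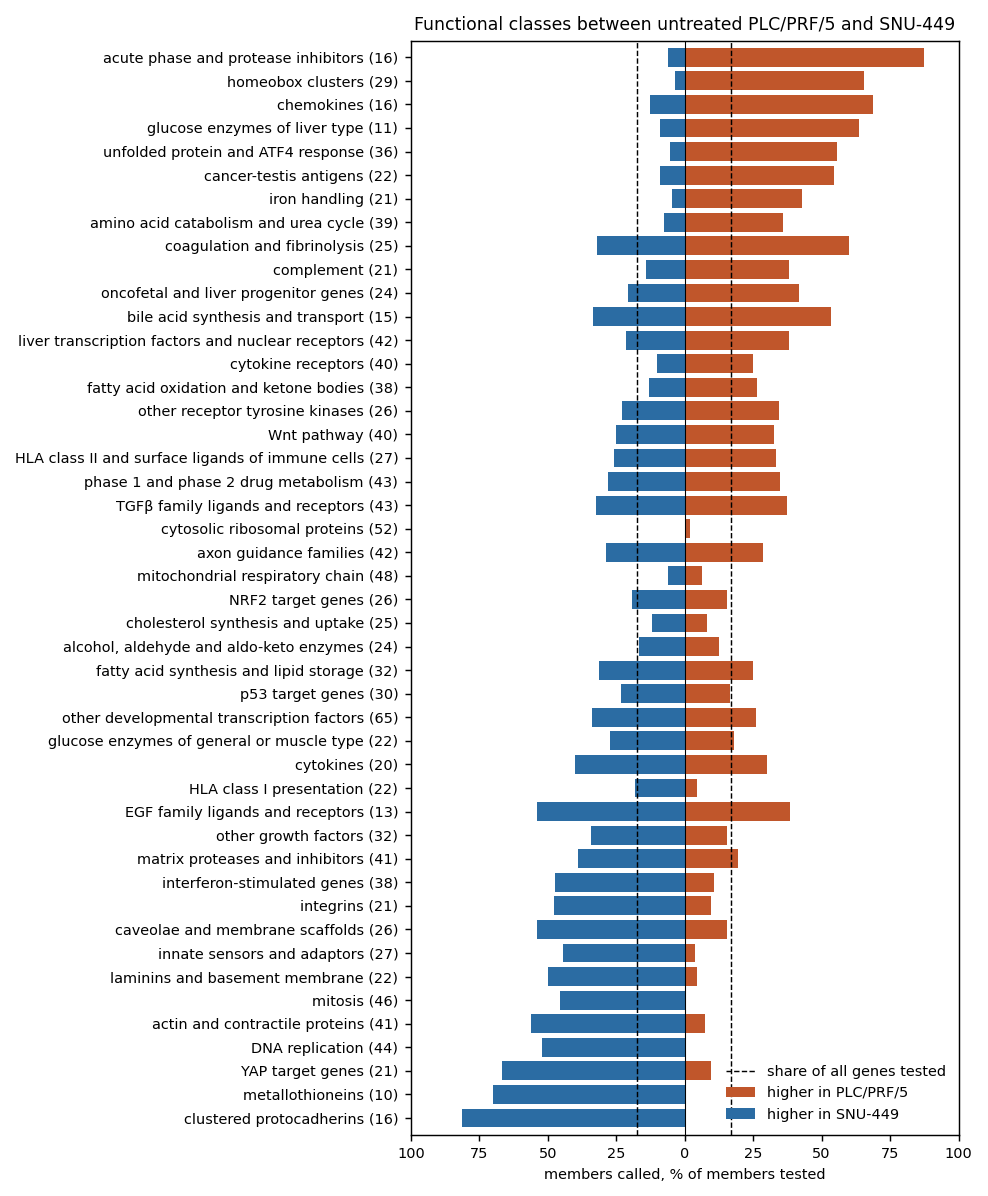
Share of the tested members of each class that were called higher in PLC/PRF/5 (right, in %) or higher in SNU-449 (left, in %), with the number tested in parentheses and, as dashed lines, the shares over all 17900 genes of 16.8% and 17.5%. Acute phase proteins, homeobox genes and chemokines lean most to PLC/PRF/5, clustered protocadherins and metallothioneins most to SNU-449, and ribosomal proteins hardly differ.

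The machinery of cell division was higher in SNU-449. Of 46 genes of mitosis, 21 were called higher in SNU-449 against 0 in PLC/PRF/5, and of 44 genes of DNA replication 23 and 0. All of these genes were measured on every control array, and their median log2 differences were -1.0 and -1.05. *RRM2*, which encodes the regulated subunit of the enzyme that makes deoxyribonucleotides, had levels of -0.09, -0.20 and 0.25 in PLC/PRF/5 and of 2.61, 2.57 and 2.71 in SNU-449. All SNU-449 arrays lay above all PLC/PRF/5 arrays, with a difference of 6.25-fold (log2 difference -2.64, standard error 0.23, adjusted p = 2.9e-09). The levels of *CCNE2*, the cyclin that drives entry into S phase, were -0.60, -0.38 and -0.29 against 2.00, 2.39 and 2.07. *GINS1*, a subunit of the replicative helicase, was 5.66-fold higher in SNU-449, without overlap of the groups.

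Among mitotic genes, the kinesin *KIF15* was 5.06-fold, the cytokinesis protein *ANLN* 4.93-fold and the kinetochore protein *CENPF* 3.86-fold higher in SNU-449. Several classical proliferation genes, chosen after their values were seen, showed smaller differences. *PCNA*, the sliding clamp of DNA polymerase, had levels of 4.24, 4.14 and 4.30 in PLC/PRF/5 and 5.83, 6.01 and 6.11 in SNU-449. *MKI67*, which encodes the antigen Ki-67, was 3.04-fold and *CDK1*, the mitotic kinase, 2.50-fold higher in SNU-449. *CCNB1*, encoding the partner of that kinase, did not pass the test on its brightest probe (log2 difference 0.01) but gave -1.40 on another. PLC/PRF/5 was therefore lower in most of this machinery but not in each of its parts, with 6 of 46 mitotic and 2 of 44 replication genes having a difference above 0.

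Members of the mitosis class share a letter sequence in their promoters. The element TTTGAA, which in promoters of late cell cycle genes is bound by a repressor complex, was found on either strand in 28 of 39 promoters of the class that could be matched to the RefSeq table, that is 71.8%, against 15.4% of all 27305 promoters of the table and 10.2% of those of tested genes. Of the 28 genes, 16 were called higher in SNU-449, against 18 of all 39. The promoter of *ANLN* is shown as an example from 250 bases before to 50 bases after the start site, with the matches in capitals.
ANLN, chr7:36389612-36389911, GRCh38.p14, + strand: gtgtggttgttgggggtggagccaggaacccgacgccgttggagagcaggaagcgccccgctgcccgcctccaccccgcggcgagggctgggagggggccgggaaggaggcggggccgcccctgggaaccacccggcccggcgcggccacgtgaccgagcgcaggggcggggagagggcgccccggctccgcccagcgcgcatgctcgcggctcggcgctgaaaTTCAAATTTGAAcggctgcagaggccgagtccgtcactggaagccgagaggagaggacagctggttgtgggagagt
It holds 2 adjacent matches on opposite strands, the first beginning 26 bases before the start. The element was searched by its letters only, and a match does not show that it is bound in these cells.

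The opposite was seen for the response to amino acid shortage and to unfolded proteins in the endoplasmic reticulum, in which the transcription factors ATF4, DDIT3 and XBP1 induce chaperones, amino acid enzymes and inhibitors of growth. Of 36 genes tested, 20 were called higher in PLC/PRF/5 and 2 in SNU-449. The median log2 difference was 1.28, and each gene was measured on all 6 arrays. *CHAC1*, encoding an enzyme that degrades glutathione and a target of ATF4, had levels of 5.54, 5.57 and 5.57 in PLC/PRF/5 and 0.14, -0.16 and 0.10 in SNU-449. The lines were far apart, by 46.3-fold (log2 difference 5.53, standard error 0.13, adjusted p = 1.8e-18), and a second probe gave 5.73. *DDIT4*, an inhibitor of the growth kinase mTORC1, had levels of 4.84, 4.96 and 5.17 against -0.42, -0.14 and -0.41, a difference of 39.9-fold. *HERPUD1*, which helps to degrade misfolded proteins, was 9.11-fold higher in PLC/PRF/5.

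The transcription factors of this response, chosen after their values were seen, pointed the same way. *DDIT3* was 5.57-fold, *ATF4* 3.1-fold and *XBP1* 2.74-fold higher in PLC/PRF/5, and *ASNS*, the asparagine synthetase induced by ATF4, was 3.78-fold higher. Against the direction of the class stood *HSPA5*, which encodes BiP, the main chaperone of the endoplasmic reticulum. Its levels were 1.22, 1.41 and 1.45 in PLC/PRF/5 and 2.42, 2.51 and 2.54 in SNU-449, a difference of 2.19-fold in favour of SNU-449 without overlap. The receptor *VLDLR* was 3.31-fold higher in SNU-449, and *TRIB3*, another target of ATF4, had a log2 difference of -0.98, just short of the fold limit. The class was therefore not shifted as 1 block, with 7 of its 36 genes having a difference below 0.

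The composite element to which ATF4 binds with a C/EBP protein, searched as TGATGNAA on both strands, was in 5 of the 32 promoters of this class, or 15.6%, against 3.67% of all promoters and 1.82% of those of tested genes. Of these 5 genes, 4 were called higher in PLC/PRF/5, against 18 of all 32. *CHAC1*, the gene with the largest difference of the class, is among the 5.
CHAC1, chr15:40953221-40953520, GRCh38.p14, + strand: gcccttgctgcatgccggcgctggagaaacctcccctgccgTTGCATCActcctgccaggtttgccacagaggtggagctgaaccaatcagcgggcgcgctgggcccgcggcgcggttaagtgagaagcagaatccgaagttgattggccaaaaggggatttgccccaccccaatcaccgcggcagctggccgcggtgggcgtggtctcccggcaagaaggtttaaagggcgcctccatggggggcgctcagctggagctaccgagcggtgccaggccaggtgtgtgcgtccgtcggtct
Its match, in capitals, begins 209 bases before the start and reads on the opposite strand.

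**Figure D2:**
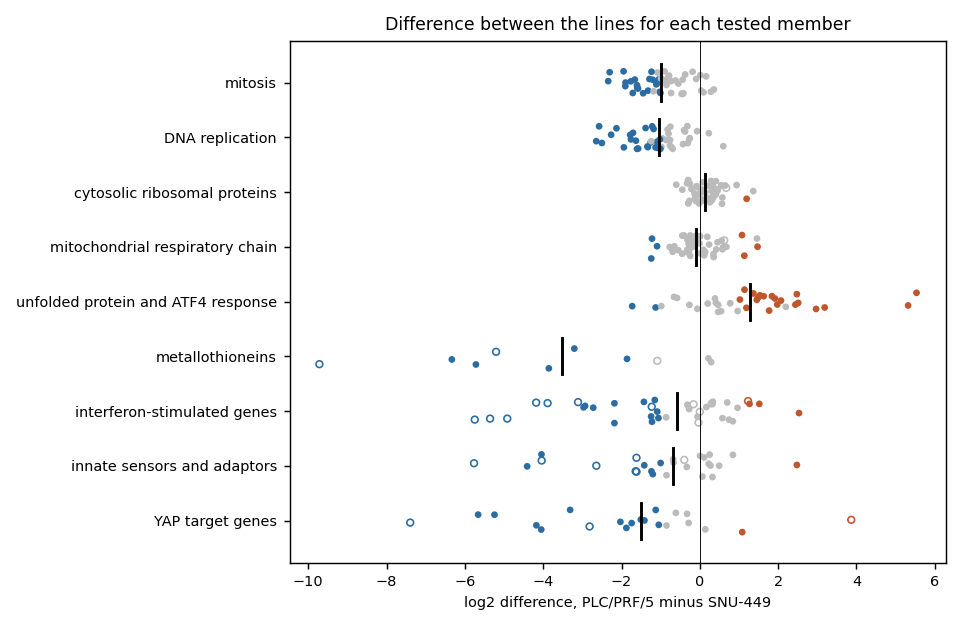
Log2 level of PLC/PRF/5 minus that of SNU-449 in control cells (horizontal axis, positive when higher in PLC/PRF/5) for every tested member of 9 classes. Orange and blue points were called higher in PLC/PRF/5 and in SNU-449, grey points were not called, open points were not measured on all 6 arrays, and black bars are medians. Mitosis and DNA replication lie left of 0 and the unfolded protein and ATF4 response right of it, around medians of -1.0, -1.05 and 1.28, whereas ribosomal proteins lie close to 0 with a median of 0.14.

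Metallothioneins, small cysteine-rich proteins that hold zinc and copper and are induced by metals and glucocorticoids, were higher in SNU-449. The genes lie side by side on chromosome 16, and 7 of the 10 genes tested in the class, which includes their activator *MTF1*, were called higher in SNU-449 against 0 in PLC/PRF/5, and 5 and 0 of the 7 measured on all arrays. *MT2A*, the most widely expressed member (chosen after its values were seen), had levels of 4.81, 5.04 and 5.18 in PLC/PRF/5 and 9.11, 8.68 and 8.81 in SNU-449, a difference of 14.5-fold. *MT1E* had levels of 0.95, 1.07 and 1.16 against 7.83, 6.84 and 7.51, and *MT1M* was at the floor on all 3 PLC/PRF/5 arrays and at 5.93, 5.37 and 5.44 in SNU-449, which is at least 722-fold higher. Neither gene overlapped between the lines. The *MT1* genes are near-identical in sequence, so that a probe may also report its neighbours and the sizes for single *MT1* genes are uncertain.

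The metal response element, to which MTF1 binds, was searched by its core TGCNCNC on both strands. Those letters are common, with a match in 55.2% of all promoters and 62.3% of those of tested genes. The promoter of *MT2A* held 8 matches, which are in capitals.
MT2A, chr16:56608334-56608633, GRCh38.p14, + strand: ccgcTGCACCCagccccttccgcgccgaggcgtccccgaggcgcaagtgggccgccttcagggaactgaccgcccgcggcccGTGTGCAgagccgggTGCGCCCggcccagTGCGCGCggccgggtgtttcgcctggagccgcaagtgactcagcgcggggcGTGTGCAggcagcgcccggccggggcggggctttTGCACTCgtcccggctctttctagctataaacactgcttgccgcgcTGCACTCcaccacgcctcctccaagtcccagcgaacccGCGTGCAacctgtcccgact
Of the class, 4 genes could be matched to the promoter table, namely *MT2A*, *MT1B*, *MT1X* and *MTF1*, and each held at least 1 match.

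Detoxification genes separated the lines in both directions. Of 43 enzymes of drug oxidation and conjugation, 15 were called higher in PLC/PRF/5 and 12 in SNU-449, and 7 and 6 of the 26 measured on all arrays. The largest difference of all genes was that of *GSTP1*, a glutathione transferase that is silenced by promoter methylation in many liver and prostate tumours. It had levels of 10.05, 9.71 and 9.52 in PLC/PRF/5 and of -4.13, -3.89 and -4.11 in SNU-449, where no array measured it above background. The difference in favour of PLC/PRF/5 was at least 13567-fold. *MGST1*, a glutathione transferase of the membrane, was at the floor in PLC/PRF/5 and at 6.23, 6.21 and 6.37 in SNU-449. *GSTT2* was likewise at least 72.0-fold higher in SNU-449. The glutathione transferases named here thus went both ways, and they were named for the size of their differences.

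The same split held for the cytochromes P450 that the aryl hydrocarbon receptor induces. *CYP1A1* was higher in PLC/PRF/5 by at least 48.9-fold and *CYP1B1* 173-fold higher in SNU-449. Among 26 targets of the transcription factor NRF2, 4 were called higher in PLC/PRF/5 and 5 in SNU-449, and 4 and 4 of the 24 measured on all arrays. The share called, 34.6%, was that of all genes (34.4%), so the list as a whole did not set the lines apart. *SLC7A11*, the cystine importer, was 7.62-fold higher in PLC/PRF/5, whereas *NQO1*, encoding a quinone reductase, was at the floor in PLC/PRF/5 and at least 18.2-fold higher in SNU-449. Of 24 alcohol, aldehyde and aldo-keto enzymes, 3 and 4 were called, and 2 and 4 of the 20 measured on all arrays. Their share called, 29.2%, was below that of all genes.

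Enzymes of glucose metabolism of the liver type leaned to PLC/PRF/5. Of 11 enzymes and transporters of the liver type, 7 were called higher in PLC/PRF/5 and 1 in SNU-449, and 4 and 1 of the 7 measured on all arrays. *G6PC1*, the catalytic subunit of glucose 6-phosphatase that releases glucose from liver cells, had levels of 6.31, 6.33 and 6.40 in PLC/PRF/5 and was at the floor on all SNU-449 arrays, at least 1353-fold lower. *PCK1*, the committing enzyme of gluconeogenesis, was at least 31.6-fold and the transporter *SLC2A2* 16.9-fold higher in PLC/PRF/5. The exception was *PYGL*, the liver glycogen phosphorylase, which was 3.39-fold higher in SNU-449.

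The forms found in other tissues were divided. Of 22 such enzymes and transporters, 4 were called higher in PLC/PRF/5 and 6 in SNU-449, and 1 and 4 of the 17 measured on all arrays. *HK2*, the hexokinase of muscle and of many tumours, had levels of 2.64, 2.81 and 2.86 in PLC/PRF/5 and was at the floor in SNU-449, at least 114-fold lower, and *SLC2A3*, the neuronal glucose transporter, was higher in PLC/PRF/5 by at least 192-fold. *LDHB*, the lactate dehydrogenase subunit of heart, was at the floor in PLC/PRF/5 and at 1.29, 1.32 and 1.48 in SNU-449. SNU-449 was also higher in the platelet phosphofructokinase *PFKP* (11.5-fold), the muscle form *PFKM* (6.29-fold) and the regulator *PFKFB3* (15.5-fold). The subunit *LDHA* (log2 difference 0.68) and the shared enzymes *GAPDH* (0.18), *ENO1* (-0.20) and *GPI* (-0.12) stayed below the fold limit, and a second probe of *LDHA* gave -0.05.

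Amino acid and iron metabolism leaned to PLC/PRF/5. Of 39 enzymes of amino acid catabolism and the urea cycle, 14 were called higher in PLC/PRF/5 and 3 in SNU-449, and among the 27 measured on all arrays 7 and 2. *HGD*, an enzyme of tyrosine breakdown, was measured on 1 of 3 SNU-449 arrays and was about 261-fold higher in PLC/PRF/5. Of 21 genes of iron handling, 9 were called higher in PLC/PRF/5 and 1 in SNU-449, and 7 and 1 of the 17 measured on all arrays. The level of *TF*, the plasma iron carrier, was higher in PLC/PRF/5 by at least 735-fold.

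Of 38 genes of fatty acid oxidation and ketone bodies, 10 were called higher in PLC/PRF/5 and 5 in SNU-449, and 7 and 2 of the 30 measured on all arrays. The share called was 39.5%, against 34.4% of all genes. The median was 0.35 and became -0.02 when arrays were scaled to their median. *FABP1*, the liver fatty acid binding protein, was higher in PLC/PRF/5 by at least 995-fold. *OXCT1*, which allows cells to burn ketone bodies and is absent from hepatocytes, was at the floor in PLC/PRF/5 and at 2.99, 3.01 and 2.56 in SNU-449, at least 109-fold higher. Cholesterol synthesis and uptake differed little, with 2 and 3 of 25 genes called, and 2 and 2 of the 24 measured on all arrays. Of 15 genes of bile acid synthesis and transport, 8 were called higher in PLC/PRF/5, led by *ACOX2* and *CYP27A1*, and 5 in SNU-449, among them the exporters *ABCC3* (50.6-fold) and *ABCC4* (30.1-fold). Over the 9 of these genes measured on all arrays the lean to PLC/PRF/5 was lost, with 3 called higher in PLC/PRF/5, 4 in SNU-449 and a median of 0.09 in place of 1.47. Of 32 genes of fatty acid synthesis and storage, 8 and 10 were called, and 5 and 8 of the 27 measured on all arrays.

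Most acute phase proteins were higher in PLC/PRF/5. Of 16 acute phase proteins and protease inhibitors, 14 were called higher in PLC/PRF/5 and 1 in SNU-449, and 4 and 1 of the 5 measured on all arrays. The broad protease inhibitor *A2M* had levels of 6.27, 6.34 and 6.48 there and was at the floor in SNU-449. The exception, *SERPINA3*, which encodes antichymotrypsin, was 2.34-fold higher in SNU-449. Of 25 coagulation and fibrinolysis genes, 15 were called higher in PLC/PRF/5 and 8 in SNU-449. Prothrombin (*F2*, at least 914-fold) and factor XII (*F12*, at least 784-fold) were higher in PLC/PRF/5. The chains of circulating fibrinogen were divided. *FGA* (about 289-fold, not measured on all arrays) and *FGG* (4.01-fold) were higher in PLC/PRF/5, whereas *FGB* was 4.9-fold higher in SNU-449. *FGB* and *FGG* were chosen after their values were seen. Genes higher in SNU-449 also included the urokinase *PLAU* (185-fold) and the inhibitor *TFPI2* (at least 86.3-fold). Over the coagulation genes measured on all 6 arrays the direction was opposite, with 2 called higher in PLC/PRF/5, 5 in SNU-449 and a median log2 difference of -2.18, against 2.00 over all 25. Of 21 complement genes, 8 were called higher in PLC/PRF/5 and 3 in SNU-449, and 5 and 1 of the 13 measured on all arrays. Those higher in PLC/PRF/5 included *VTN* (163-fold), whereas the surface inhibitors *CD55* (at least 32.8-fold) and *CD59* (4.06-fold) were higher in SNU-449.

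Sensors of infection and interferon-stimulated genes were called higher in SNU-449 more often than in PLC/PRF/5. Of 27 innate sensors and adaptors, 12 were called higher in SNU-449 and 1 in PLC/PRF/5. *MYD88*, the adaptor of Toll-like receptors and the interleukin-1 receptor, was at the floor in PLC/PRF/5 and at 1.54, 1.66 and 1.70 in SNU-449, at least 46.7-fold higher. The inflammatory caspases *CASP4* and *CASP5*, which bind bacterial lipopolysaccharide in the cytosol, were 21.2-fold and 16.5-fold higher in SNU-449. *CGAS*, the sensor of cytosolic DNA (chosen after its values were seen), was at the floor in PLC/PRF/5 and varied from -0.62 to 0.37 in SNU-449. The member higher in PLC/PRF/5 was *GSDMB*, a pore-forming protein, by 5.57-fold. Among the 20 sensors measured on all arrays, 6 were called higher in SNU-449 and 1 in PLC/PRF/5. Their median log2 difference was -0.16, and that of the class was 0 when dim probes were kept.

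Of 38 interferon-stimulated genes, 18 were called higher in SNU-449 against 4 in PLC/PRF/5, and 11 and 3 of the 26 measured on all arrays. *IRF7*, a transcription factor that amplifies the interferon response, was at the floor in PLC/PRF/5 and at 1.49, 1.75 and 1.6 in SNU-449, and the guanylate binding proteins *GBP1* and *GBP3* were at least 35.2-fold and 25.9-fold higher in SNU-449. *ISG20*, an RNA exonuclease, was 5.79-fold and *IFITM3*, which blocks entry of viruses, 2.87-fold higher in PLC/PRF/5. *ISG15*, often read as an index of the response (chosen after its values were seen), had levels of 3.33, 3.30 and 3.32 in PLC/PRF/5 and 3.00, 2.97 and 2.98 in SNU-449, which is 1.26-fold. The class was therefore split, and its median over the 26 genes measured on all arrays was -0.30.

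The interferon-stimulated response element, searched on both strands as GAAA, any 2 bases and GAAA again, was in 20 of the 30 promoters of this class, or 66.7%, against 3.65% of all promoters. Of the 20 genes, 10 were called higher in SNU-449, 2 in PLC/PRF/5 and the others were not called. Of all 30 genes with a promoter, 15 and 2 were called, so that the share higher in SNU-449 was the same with the element as in the class. *IFIT3*, which was 14.8-fold higher in SNU-449 and well above background on 2 of 3 PLC/PRF/5 arrays (chosen after its values were seen), holds 2 matches.
IFIT3, chr10:89327747-89328046, GRCh38.p14, + strand: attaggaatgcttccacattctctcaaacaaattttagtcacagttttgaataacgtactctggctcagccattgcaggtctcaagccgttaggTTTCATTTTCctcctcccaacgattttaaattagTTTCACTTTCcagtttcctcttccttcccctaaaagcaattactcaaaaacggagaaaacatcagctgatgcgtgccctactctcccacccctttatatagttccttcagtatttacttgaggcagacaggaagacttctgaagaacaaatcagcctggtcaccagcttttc
The matches begin 156 and 122 bases before the start and both read on the opposite strand.

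Antigen presentation on HLA class I differed little, with 1 of 22 genes called higher in PLC/PRF/5 and 4 in SNU-449, and 1 and 3 of the 20 measured on all arrays. Those 4 included the immunoproteasome subunits *PSMB8* (at least 11.1-fold) and *PSMB9* (3.57-fold) and the trimming peptidase *ERAP2* (6.14-fold). Chemokines leaned the other way. Of 16 tested, 11 were called higher in PLC/PRF/5 and 2 in SNU-449, and of the 8 measured on all arrays 5 and 1. *CCL20*, which attracts cells bearing CCR6, had levels of 2.74, 2.71 and 3.06 in PLC/PRF/5 and was at the floor in SNU-449. *CXCL12*, measured on 1 of 3 SNU-449 arrays, was about 191-fold higher in PLC/PRF/5 on its brightest probe, with other probes giving log2 differences from 1.37 to 6.78. *CXCL8*, the neutrophil attractant interleukin-8 (chosen after its values were seen), was higher in PLC/PRF/5 by at least 44.7-fold. The monocyte attractant *CCL2* was at the floor in PLC/PRF/5 and at 1.68, 1.95 and 1.97 in SNU-449. *CCL2* and *CKLF* were the members called higher in SNU-449, the latter chosen after its values were seen.

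Of 20 cytokines, 6 were called higher in PLC/PRF/5, led by the death ligand *TNFSF10* (68.2-fold), and 8 in SNU-449, led by *LIF* (51.5-fold) and *IL11* (11.2-fold), both of which signal through gp130. Of the 14 measured on all arrays, 4 and 5 were called. Of 40 cytokine receptors, 10 and 4 were called, and 9 and 1 of the 32 measured on all arrays. The share of receptors called, 35%, was close to the 34.4% of all genes. *IL6R*, the receptor through which interleukin-6 induces acute phase proteins, was 10.2-fold higher in PLC/PRF/5, and the decoy receptor *TNFRSF11B* was at least 249-fold higher in SNU-449. Of 27 HLA class II genes and ligands of immune receptors, 9 and 7 were called, and 7 and 4 of the 18 measured on all arrays.

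The EGF family class, which also lists the receptor regulators *LRIG1*, *LRIG3* and *ERRFI1*, was called in nearly all of its genes. Of 13 tested, 5 were called higher in PLC/PRF/5 and 7 in SNU-449, and 4 and 4 of the 9 measured on all arrays. The receptor *ERBB3* had levels of 4.07, 4.12 and 4.07 in PLC/PRF/5 and -3.56, -1.61 and -1.73 in SNU-449, where it was well above background on 2 of 3 arrays. *ERBB4*, which binds the same neuregulins, was at the floor in PLC/PRF/5 and at 3.02, 3.40 and 3.36 in SNU-449, and the ligand *NRG1* was at the floor in PLC/PRF/5 and at 3.05, 2.68 and 2.89 in SNU-449. Neuregulin and *ERBB4* were thus found together in SNU-449, and *ERBB3* in PLC/PRF/5, although other probes of *ERBB3* gave smaller log2 differences of 1.32 and 1.92. The ligands of EGFR were divided as well, with *AREG* 15.3-fold and *EREG* 3.77-fold higher in PLC/PRF/5 and *HBEGF* 8.46-fold higher in SNU-449.

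Of 26 other receptor tyrosine kinases, 9 were called higher in PLC/PRF/5 and 6 in SNU-449, and 5 and 4 of the 19 measured on all arrays. *FGFR3*, one of the receptors for FGF19, had levels of 5.05, 5.10 and 5.08 in PLC/PRF/5 and 0.16, 0.54 and 0.37 in SNU-449, a difference of 26.3-fold, and *ROR1* was higher in PLC/PRF/5 by at least 51.7-fold. *AXL*, often found in mesenchymal tumour cells, was 18.1-fold and *EPHB2* 20.3-fold higher in SNU-449. Of 32 other growth factors, 5 were called higher in PLC/PRF/5, led by the neuropeptide *CRH* (at least 1132-fold), and 11 in SNU-449, among them *FGF2* and *FGF5*. Of the 18 measured on all arrays, 2 and 4 were called.

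The TGFβ family was called in both directions. Of 43 ligands, receptors and binding proteins, 16 were called higher in PLC/PRF/5 and 14 in SNU-449, and 7 and 4 of the 22 measured on all arrays. *FST*, which traps activins, had levels of 5.02, 5.06 and 5.07 in PLC/PRF/5 and was at the floor in SNU-449, at least 552-fold lower, and *INHBB*, the subunit of activin B, was about 331-fold higher in PLC/PRF/5 with 1 of 3 SNU-449 arrays well above background. *TGFB2* had levels of -2.64, -2.55 and -2.30 in PLC/PRF/5 and of 2.64, 2.73 and 2.86 in SNU-449, a difference of 37.9-fold. *LTBP2*, a relative of the proteins that anchor latent TGFβ in the matrix, was at least 72.0-fold higher in SNU-449. *INHBA*, the subunit of activin A, and *FSTL3*, another antagonist of activins, were higher in SNU-449 by at least 25.9-fold and by 9.88-fold, both chosen after their values were seen.

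Wnt genes showed a comparable exchange. Of 40 tested, 13 were called higher in PLC/PRF/5 and 10 in SNU-449, and 8 and 6 of the 25 measured on all arrays. *WNT5A*, which signals without β-catenin in most cells, was at the floor in PLC/PRF/5 and at 2.66, 2.79 and 2.83 in SNU-449, and *WNT5B* was at least 203-fold higher in SNU-449. Several genes that β-catenin induces were higher in PLC/PRF/5, with the transcription factor *LEF1* at least 63.9-fold and the receptor ligase *RNF43* 76.3-fold higher. *AXIN2*, the target most often used as a readout of β-catenin (chosen after its values were seen), went the other way, with levels of -2.63, -2.78 and -2.28 in PLC/PRF/5 and 0.02, 0.36 and 0.09 in SNU-449.

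Of 21 target genes of the mechanosensitive coactivator YAP, 14 were called higher in SNU-449 against 2 in PLC/PRF/5, and of the 18 measured on all arrays 12 and 1. *FJX1* was 50.6-fold, *AXL* 18.1-fold and *NT5E* 16.6-fold higher in SNU-449. The best known targets, *CCN1* and *CCN2*, which were chosen after their values were seen, were not called. Their log2 differences were -0.61 and -0.29, and the *CCN2* levels of 2.74, 2.50 and 2.99 in PLC/PRF/5 overlapped those of 2.97, 2.93 and 3.19 in SNU-449.

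**Figure D3:**
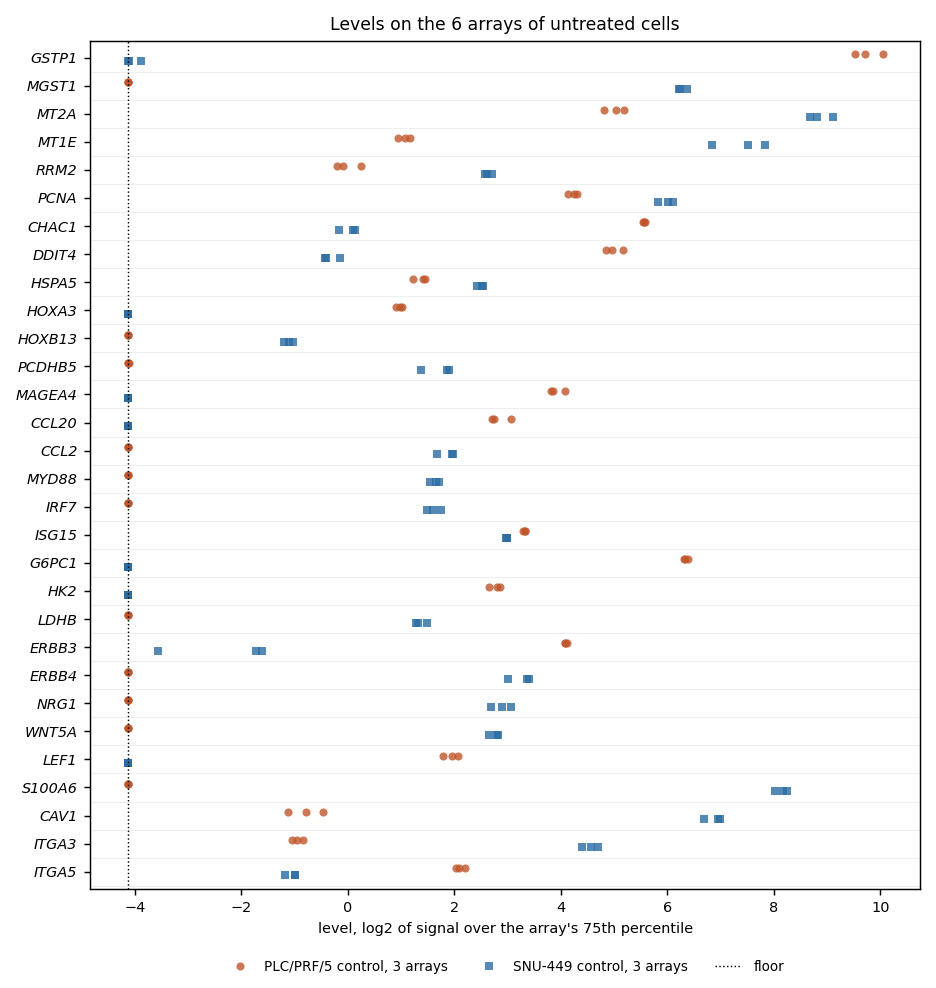
Level of 30 genes on each of the 3 PLC/PRF/5 (orange circles) and 3 SNU-449 (blue squares) control arrays, as log2 of the signal over the 75th percentile of the array. The dotted line is the floor at -4.13. Genes such as *GSTP1*, *G6PC1* and *CCL20* lie at or near the floor in SNU-449, *MGST1*, *S100A6* and *WNT5A* in PLC/PRF/5, and *ISG15* differs by 0.33.

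The contractile and membrane skeleton was higher in SNU-449. Of 41 actin-associated and contractile genes, 23 were called higher in SNU-449 against 3 in PLC/PRF/5, and 18 and 1 of the 33 measured on all arrays. The smooth muscle protein *CNN1* was at the floor in PLC/PRF/5 and at 6.25, 6.71 and 6.54 in SNU-449, and *TAGLN*, a calponin relative, was 45.1-fold higher in SNU-449. Against the class stood *VIL1*, the bundling protein of microvilli, at 3.34, 3.36 and 3.39 in PLC/PRF/5 and at the floor in SNU-449, and *TPM2*, a tropomyosin, 13.4-fold higher in PLC/PRF/5. Of 26 genes of caveolae, annexins and S100 proteins, 14 were called higher in SNU-449 against 4 in PLC/PRF/5, and 7 and 3 of the 16 measured on all arrays. *CAV1*, the coat protein of caveolae (chosen after its values were seen), had levels of -0.78, -1.12 and -0.46 in PLC/PRF/5 and 6.69, 6.99 and 6.96 in SNU-449, a difference of 203-fold.

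The calcium-binding protein *S100A6* had the largest difference of all genes in favour of SNU-449. It was at the floor on the 3 PLC/PRF/5 arrays and at 8.17, 8.02 and 8.26 in SNU-449, at least 4271-fold higher. Its neighbours on chromosome 1 did not all follow. Of 12 *S100A* genes tested there, 7 were called higher in SNU-449, among them *S100A11*, and *S100A14* was called higher in PLC/PRF/5, while *S100A16*, beside it, was not called (log2 difference 0.43).

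Integrins, which are receptors for the matrix, and basement membrane genes were called higher in SNU-449 more often than in PLC/PRF/5. Of 21 integrins, 10 were called higher in SNU-449 against 2 in PLC/PRF/5, and 6 and 1 of the 12 measured on all arrays. *ITGA3*, a laminin receptor subunit, had levels of -0.84, -1.04 and -0.95 in PLC/PRF/5 and 4.71, 4.4 and 4.58 in SNU-449, and *ITGB4*, of hemidesmosomes, was 26.2-fold higher in SNU-449. In contrast, *ITGA5*, the fibronectin receptor subunit, had levels of 2.20, 2.09 and 2.03 in PLC/PRF/5 and -1.18, -0.99 and -1.0 in SNU-449, so that it was 8.95-fold higher in PLC/PRF/5. Of 22 laminins and basement membrane genes, 11 were called higher in SNU-449 against 1 in PLC/PRF/5, and 7 and 1 of the 17 measured on all arrays. The collagen IV chains *COL4A1* and *COL4A2* were 30.8-fold and 33.3-fold higher in SNU-449. Of 41 matrix proteases and inhibitors, 16 were called higher in SNU-449, with *TIMP1* 81.2-fold higher, and 8 in PLC/PRF/5. Over the 26 measured on all arrays this lean was lost, with 6 called each way and a median of 0.21 in place of -0.19. Axon guidance molecules were called evenly, 12 of 42 in each direction and 7 and 5 of the 22 measured on all arrays, although *SEMA3C*, *SLIT3* and *EFNB2* were each more than 100-fold higher in SNU-449.

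Clustered protocadherins, adhesion proteins that give neurons their identity, were mostly higher in SNU-449. Of 16 tested, 13 were called higher in SNU-449 and 0 in PLC/PRF/5. *PCDHB5* was not well above background in PLC/PRF/5 and had levels of 1.37, 1.86 and 1.91 in SNU-449. Among the 12 tested genes of the β cluster on chromosome 5, 10 were called, and *PCDHB13*, measured in both lines with means of 0.75 and 1.65, was not. Only 3 genes of the class were measured on all 6 arrays, 1 of which was called higher in SNU-449, and the genes of the cluster resemble each other, so that the value of a single member is uncertain.

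Homeobox genes of the *HOX* clusters, which set position along the body axis, showed the reverse. Of 29 tested, 19 were called higher in PLC/PRF/5 and 1 in SNU-449, and 6 and 0 of the 9 measured on all arrays. *HOXA3* had levels of 0.90, 0.98 and 1.02 in PLC/PRF/5 and was at the floor in SNU-449, and *HOXD8* and *HOXC13* were at least 29.9-fold and 24.7-fold higher in PLC/PRF/5. All 4 clusters took part, with 6 of 9 genes called higher in PLC/PRF/5 on chromosome 7, 3 of 6 on chromosome 17, 6 of 8 on chromosome 12 and 4 of 6 on chromosome 2. The clusters were not shifted evenly. In the *HOXA* cluster, *HOXA2* to *HOXA6* were higher in PLC/PRF/5, *HOXA7*, *HOXA9* and *HOXA10* were not called, and *HOXA13* was again higher. *HOXA9* (chosen after its values were seen) had levels of 2.81, 2.09 and 1.85 in PLC/PRF/5 and 2.63, 2.52 and 2.66 in SNU-449, which overlap. *HOXB13*, the gene at the end of its cluster, was at the floor in PLC/PRF/5 and at -1.20, -1.11 and -1.03 in SNU-449.

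**Figure D4:**
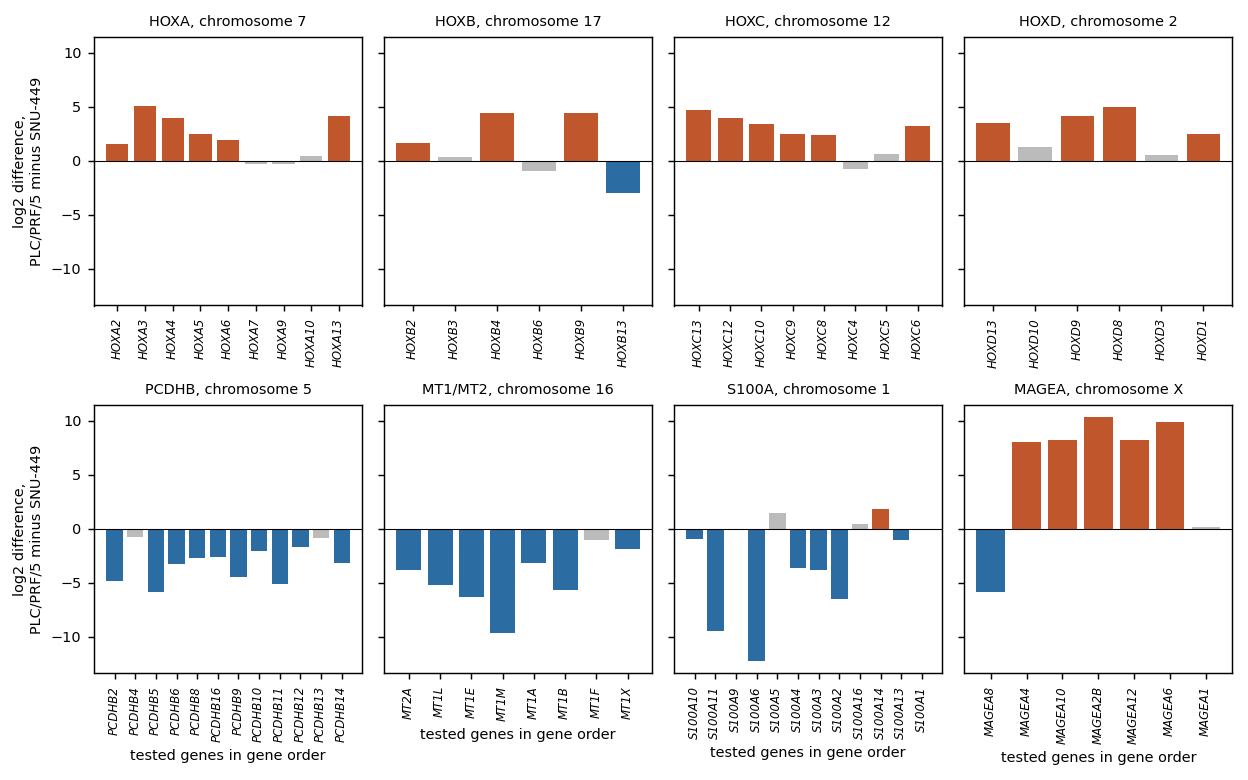
Log2 level of PLC/PRF/5 minus that of SNU-449 in control cells (vertical axis) for the tested genes of 8 gene families, in their order along the chromosome. Orange and blue bars were called higher in PLC/PRF/5 and in SNU-449 and grey bars were not called. *HOX* and *MAGEA* genes lean to PLC/PRF/5 and *PCDHB*, metallothionein and *S100A* genes to SNU-449, with exceptions such as *HOXA9* (-0.35), *PCDHB13* (-0.91), *S100A16* (0.43), *MAGEA8* (-5.92) and *MAGEA1* (0.18).

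Cancer-testis antigens, which are normally restricted to germ cells, leaned to PLC/PRF/5, although their median turned from 1.46 to -0.21 when probes had to be measured on every array of the study. Of 52 on the array, 22 could be tested, 12 of which were called higher in PLC/PRF/5 and 2 in SNU-449. *MAGEA4* (chosen after its values were seen) had levels of 4.08, 3.85 and 3.82 in PLC/PRF/5 and was at the floor in SNU-449, at least 252-fold lower. *CTAG1A*, encoding NY-ESO-1, was at 6.64, 6.63 and 6.63 in PLC/PRF/5 and at the floor in SNU-449. The members called higher in SNU-449 were *MAGEA8*, by at least 51.9-fold, and *SPANXA1*, by at least 3.55-fold. The other 8 were not called, among them *MAGEA1*, which had mean levels of 4.0 and 3.82. *CTAG1A* has an identical copy and *MAGEA2B*, *MAGEA6* and *MAGEA12* are close relatives, so that their signals may be shared, and only 6 genes of the class were measured on all arrays, of which 1 was called.

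Oncofetal and progenitor genes were called in both directions, 10 of 24 higher in PLC/PRF/5 and 5 in SNU-449, but 4 and 4 of the 16 measured on all arrays. The RNA-binding protein *LIN28B*, which blocks maturation of let-7 microRNAs, had levels of 4.82, 5.16 and 5.26 in PLC/PRF/5 and was at the floor in SNU-449, and the tetraspanin relative *TM4SF5* was higher in PLC/PRF/5 by at least 2011-fold. The fetal growth factor *IGF2* was not well above background in PLC/PRF/5 and at least 74.8-fold higher in SNU-449, and the imprinted gene *PEG10* was 14.3-fold higher there.

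Of 42 transcription factors and nuclear receptors of liver, 16 were called higher in PLC/PRF/5 and 9 in SNU-449, and 10 and 7 of the 27 measured on all arrays. *CREB3L3*, which controls genes of fasting and the acute phase, was at least 246-fold and *CEBPA* 45.0-fold higher in PLC/PRF/5. *HNF4A*, the central factor of hepatocytes (chosen after its values were seen), had low levels of -2.56, -2.24 and -2.92 in PLC/PRF/5 and was at the floor in SNU-449. The nuclear receptor *NR2F1*, measured on some PLC/PRF/5 arrays, was 211-fold higher in SNU-449. Other developmental transcription factors were called in both directions, 17 higher in PLC/PRF/5 and 22 in SNU-449 of 65, but 3 and 10 of the 30 measured on all arrays. They included several forkhead genes, with *FOXQ1* at least 368-fold higher in PLC/PRF/5 and *FOXS1*, *FOXL2* and *FOXL1* at least 216-fold, 52.7-fold and 51.5-fold higher in SNU-449.

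Among 30 p53 targets, 5 were called higher in PLC/PRF/5 and 7 in SNU-449, and 5 and 4 of the 26 measured on all arrays. The share called, 40%, was close to the 34.4% of all genes. *GDF15*, *SESN2* and *SESN1* were 9.40-fold, 5.71-fold and 5.33-fold higher in PLC/PRF/5, *SESN2* being also a target of ATF4. The kinase *PLK2* was at the floor in PLC/PRF/5 and at 5.64, 5.79 and 4.46 in SNU-449, at least 592-fold higher. Machinery shared by all cells differed little. Of 52 cytosolic ribosomal proteins, only *RPL37* was called, 2.29-fold higher in PLC/PRF/5, and of 48 subunits of the respiratory chain 3 were called in each direction. These genes were among the 51 and 47 measured on all arrays.

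Besides the genes above, the 10 largest differences in favour of PLC/PRF/5 included *APOA2* (at least 1773-fold) and the asialoglycoprotein receptor subunit *ASGR2* (1260-fold, measured on 2 of 3 SNU-449 arrays). Those in favour of SNU-449 included *FSTL1*, a follistatin-like protein (1086-fold, measured on 2 of 3 PLC/PRF/5 arrays), and *PMEPA1*, a feedback inhibitor of TGFβ signalling (at least 1055-fold). The glycosyltransferase *GALNT14*, the ubiquitin ligase *RNF182* and the mitochondrial protein *OCIAD2* were each at the floor on all PLC/PRF/5 arrays and at least 851-fold, 838-fold and 866-fold higher in SNU-449. None of these 3 belongs to a class described here.

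The same comparison could be made in cells that had received TGFβ1, galunisertib or both, on 18 other arrays at other places of the slides. In every condition PLC/PRF/5 arrays lay in columns 1 and 2 of a slide and SNU-449 arrays in columns 3 and 4. Line and side of the slide therefore cannot be told apart in treated cells either. Of all genes, 36.4%, 35.4% and 33.1% were called in the treated cells. Of the 3016 genes called higher in PLC/PRF/5 in control cells, 2609, 2563 and 2468 were called the same way under TGFβ1, galunisertib and both, against 17.5%, 16.9% and 16.3% of all genes called higher in PLC/PRF/5 there. Of the 3134 genes called higher in SNU-449, 2794, 2785 and 2653 were called the same way, against 18.8%, 18.4% and 16.8% of all genes. The median of mitosis was -1.04, -1.07 and -0.99 under the treatments, that of the unfolded protein and ATF4 response 0.85, 1.29 and 1.42, and that of the homeobox clusters 2.46, 2.70 and 2.58.

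**Figure D5:**
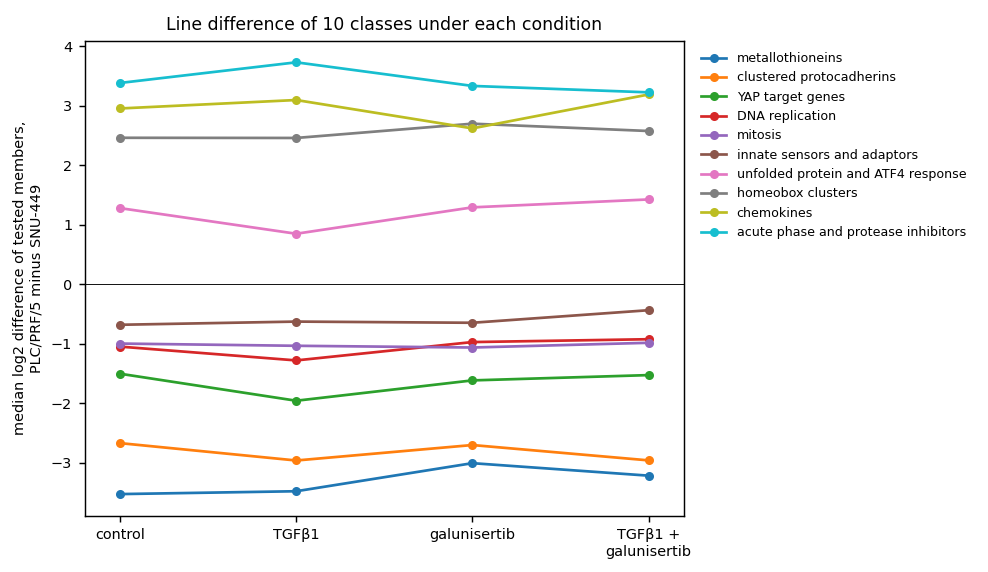
Median of PLC/PRF/5 minus SNU-449 (log2) over the tested members of 10 classes (vertical axis) in control cells and in cells treated with TGFβ1, galunisertib or both (horizontal axis), each from 6 arrays. None of these 10 crosses 0, and metallothioneins stay between -3.53 and -3.01. The 10 classes are a selection from 50 lists, and some of the others crossed 0. The TGFβ family had a median of 0.27 in control cells and -0.21 under TGFβ1, and NRF2 targets had -0.33 in control cells and 0.11 with both agents.

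Calls opposite to those of control cells were found for 4 genes, *SNAI1*, *SLC17A1*, *SLC17A3* and *IL11*. They were chosen for this and are given as a description, that of *IL11* further below. *SNAI1*, a transcription factor of the epithelial-mesenchymal transition, was higher in PLC/PRF/5 in control cells by 1.08 on the log2 scale, with means of -0.68 ± 0.10 (SD, n = 3) and -1.76 ± 0.12 (SD, n = 3). Under TGFβ1 the means were -1.25 ± 0.07 (SD, n = 3) and 1.64 ± 0.04 (SD, n = 3), so that SNU-449 was higher. The phosphate transporter relatives *SLC17A1* and *SLC17A3* also changed sides, the first under galunisertib (1.18 in control cells and -1.46 with it) and the second under TGFβ1 (-1.11 and 1.43). The lower line of *SLC17A1* lay near the floor, at -3.08 in SNU-449 control cells and -3.21 in PLC/PRF/5 with galunisertib. *CCN2*, which is not among the 4 genes as it was not called in control cells, had a log2 difference of -2.63 under TGFβ1 and of 1.32 under galunisertib.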

How the data were processed

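The authors deposited, for each of 24 arrays, scanner output of Agilent Feature Extraction 10.7.3.1, from which the processed signal was used, an intensity after background subtraction and before any scaling across arrays. They also deposited log2 values normalized in GeneSpring, used as an alternative (correlation with the values here 0.999 across 19258 probes). Control and flagged spots were left out, spots of a probe averaged, signals divided by the 75th percentile of their array and raised to a floor of 5.70% of it, set from the weakest signals that the scanner software still called well above background. A total of 206 flagged probe values were filled with their group mean. That percentile lay at 145 to 257 intensity units for PLC/PRF/5 controls and 199 to 247 for SNU-449 controls. RefSeq named 31104 of 58201 probes and LNCipedia 10719. A probe was tested if at least 1 group had it above background on all its arrays, with the brightest probe for each gene.

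limma 3.58.1 in R 4.3.3 was fitted over all 24 arrays, with Benjamini-Hochberg adjusted p over 17900 genes. The deposited mean signal was not among the columns, so normexp used the median signal. Cultures were independent, and the 8 arrays of a replicate number shared a slide. Classes are hand-written lists. Members and lists were chosen with earlier results of these data known. The named genes are the 3 largest called members of each list in each direction, up to 2 called members against most of the list, the 10 largest differences each way, the 6 markers and the glucose isozymes. Further genes, those named only as members of a gene cluster included, were picked with their values known. Some genes that the rule names are not reported here. Promoters are from RefSeq, GRCh38.p14.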

Additional observations from a re-analysis of the deposited data

Results flagged for a closer look

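*IL11* changed sides with galunisertib. PLC/PRF/5 minus SNU-449 was -3.48 on the log2 scale (standard error 0.34) in control cells and 1.77 (standard error 0.34) in galunisertib-treated cells, both called by limma. In PLC/PRF/5 the mean level was -0.68 ± 0.24 (SD, n = 3) without and -0.46 ± 0.10 (SD, n = 3) with galunisertib, and in SNU-449 it was 2.81 ± 0.14 (SD, n = 3) without and -2.24 ± 1.08 (SD, n = 3) with it. With both agents the difference was -2.06. The standard error comes from a spread shared by all 8 groups, and the SNU-449 galunisertib arrays varied more than any other group. The call in galunisertib-treated cells is therefore less certain than its standard error implies. The change of the difference between conditions was not tested.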

How the results depend on the processing

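Called genes higher in PLC/PRF/5 numbered 3016 in control cells, 1928 after normexp background correction with quantile normalization and 1626 of 12810 genes when each probe had to be measured on all 24 arrays. That filter, which removes genes expressed in a single line, left 174 instead of 340 list members higher in PLC/PRF/5 and 224 instead of 381 higher in SNU-449. Under TGFβ1, 2060 genes were higher in PLC/PRF/5 with normexp (3135 otherwise), and 5138 were higher in SNU-449 with median scaling (3373 otherwise). Of the genes measured in a single line, 544 in PLC/PRF/5 and 538 in SNU-449 exceeded the floor at least 4 times. Leaving out 1 control array at a time gave 2922 to 2980 genes higher in PLC/PRF/5 and 3036 to 3155 higher in SNU-449, and 337 to 343 and 377 to 386 list members. Of 309 named genes, 21 lost their call with normexp, 8 with median scaling and 7 each with double the floor and with the two-sample t-test, and 0 reversed. The rule for naming genes favours large differences, so these counts do not measure how stable calls are over all genes.

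Same-numbered arrays of the lines, which shared a slide, deviated together with correlations of 0.05, 0.17 and 0.07. Arrays of different number gave -0.11 to 0.03. The matched values were thus higher but small, and the main fit did not take the numbers to pair the samples. With the replicate number as a block, 3049 and 3131 genes were called and none of the 309 named genes changed its call.

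The floor hides the order of weak signals, and 3 arrays per group limit the precision. When each probe had to be measured on all 24 arrays, the medians of the coagulation, EGF family, cancer-testis, matrix protease, cytokine, axon guidance, fatty acid synthesis, other developmental transcription factor, p53 and stellate cell classes changed sign. With median scaling, those of complement, drug metabolism, fatty acid oxidation and synthesis, the TGFβ family, other receptor tyrosine kinases, Wnt, ribosomal proteins, other developmental transcription factors and leukocyte markers did.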

Other observations

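Chromosomes differed in how their genes leaned. Over 12466 genes with a RefSeq chromosome that were measured on all 6 control arrays, the median log2 difference was -0.06. It was lowest on chromosome 14 (-0.75 over 419 genes, interquartile range -1.37 to -0.09). Of 502 genes tested there, 180 (35.9%) were called higher in SNU-449 and 43 (8.57%) in PLC/PRF/5. Over all 15573 tested genes with a chromosome, these shares were 19.1% and 16.7%. The next lowest medians were on chromosome 8 (-0.51 over 434 genes, interquartile range -1.25 to 0.06) and chromosome 4 (-0.43 over 384 genes, -1.05 to 0.25). The highest medians were on chromosome 11 (0.28 over 716 genes, interquartile range -0.25 to 0.82) and chromosome 21 (0.28 over 132 genes, -0.19 to 0.84). On chromosome 21, 45 of 177 tested genes (25.4%) were called for PLC/PRF/5 and 13 (7.3%) for SNU-449.

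Some neighbouring genes were called the same way. Of the 15573 tested genes with a chromosome, 16.7% were called higher in PLC/PRF/5 and 19.1% in SNU-449. Whether runs were more frequent than these shares alone would give was not tested. The longest run of adjacent tested genes called the same way had 10 genes, on chromosome 3 from *NECTIN3* to *RMP64*, all higher in SNU-449. A run of 9 genes on chromosome 3 was higher in PLC/PRF/5 and held the plasma protein genes *AHSG*, *HRG* and *KNG1* beside *EIF4A2* and snoRNA genes. Runs of 9 genes higher in SNU-449 lay on chromosome 5 around *NR2F1*, on chromosome 5 in the protocadherin cluster and on chromosome 9 around *BNC2*. The run on chromosome 11 that held *CASP4*, *CASP5* and *CASP1* had 5 genes. Some neighbours overlap or are read from the same transcript, so that they are not independent.

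Genes measured in a single line had fewer CpG pairs in the 300 bases around their start. The median was 16 for genes measured only in PLC/PRF/5 (535 promoters) and 16 for those measured only in SNU-449 (517 promoters), against 25 for all tested genes (12094 promoters).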
